A study of Mus musculus with 6 samples.

Results

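The genes described here encode collagens, laminins and integrins, the main structural proteins of the extracellular matrix and the receptors that hold cells to it. Members were taken by gene name from a whole-genome mouse array: names of the form Col, Lama, Lamb or Lamc followed by numbers, and Itga or Itgb followed by letters or numbers, with the names beginning Itgb1bp, Itgb3bp and Itgbl left out. This gave 77 of 27972 gene names, each read by the probe with the highest mean log2 signal over all 6 arrays. They comprised 40 collagens, 10 laminins and 26 integrins. The remaining name, Itgb4bp, matched by its letters, but through its accession it is Eif6, a translation initiation factor and no integrin. It stayed among the members by the rule, and counts without it are given once for each comparison. Laminin beta 1 is listed on the array as Lamb1-1 and is not a member by the rule. Its values are given beside those of the laminins.

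The RNA came from mouse germ cells made in culture from Dazl-GFP-V5 embryonic stem cells, which descend from the V6.5 line on a mixed C57BL/6 and 129SV background. All groups shared this genotype, the removal of feeder cells and 12 days in differentiation medium on gelatin. DAZL, which binds RNA in germ cells, carried a GFP and a V5 tag in every group, so no group lacked the tagged protein. The 3 groups of 2 arrays were RNA recovered with an antibody to GFP (GFP IP), RNA recovered with an antibody to the poly(A)-binding protein PABP1 (PABP1 IP), and total RNA with no antibody (input). The labels call the cells primordial germ cells and place UV crosslinking of protein to RNA before the IP. Whether replicates came from separate cultures is not stated, and the p-values measure only a spread between arrays that may be technical.

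Collagens are triple helices that form fibrils, sheets or anchoring filaments outside the cell. Laminins are cross-shaped trimers of an alpha, a beta and a gamma chain that build the basement membrane together with collagen IV. Integrins are pairs of an alpha and a beta chain that span the membrane, bind these ligands outside and connect to the actin skeleton inside. In the embryo, primordial germ cells use integrins while they migrate through and settle in matrix that surrounding cells lay down. The mRNAs of all these proteins are translated at the endoplasmic reticulum.

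Each array read 43379 spots for 41174 probes, with 41.5% to 52.6% of spots well above background and 0 saturated. Levels below are log2 signals relative to the array's 75th percentile, so a level of 0 is a signal equal to that percentile. That percentile was 150 and 156 on the GFP IP arrays, 102 and 142 on the PABP1 IP arrays, and 61.3 and 72.6 on the input arrays. Across 14976 tested genes, which are not independent replicates, replicates correlated at 0.981 in the GFP IP, 0.982 in the PABP1 IP and 0.992 in input. Arrays of different groups correlated at 0.872 to 0.934. Slide 1 held GFP IP replicate 2, PABP1 IP replicate 1 and both inputs, while slide 2 held GFP IP replicate 1 and PABP1 IP replicate 2. Fits within slide 1 thus have 1 array of each IP. Their p-values take the spread from the input arrays alone and hold no spread of an IP. Calls passed or lost within slide 1 are to be read with this limit, above all those between the IPs. The number of arrays limits the precision. Of 10 primordial germ cell markers 8 were on the array and 7 were tested, but Ddx4, a marker of later germ cells, was well above background on 2 of 6 arrays. Of 7 visceral endoderm markers Afp, Ttr, Apoa1 and Apob were above background on 0 arrays, and 3 were tested. Of these, 1 was higher and 0 lower in the GFP IP against input, and 2 higher and 0 lower in the PABP1 IP against input (adjusted p under 0.05). Of all genes tested, 18.5% were higher and 36.6% lower in the first of these comparisons, and 30.1% and 23.8% in the second.

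A gene was tested when both arrays of 1 group or more had its probe well above background. Of the 77 members, 51 were tested and 26 were not, and 42 were well above background on all 6 arrays. Among the 26 not tested, 16 were above background on 0 arrays, 8 on 1 array and 2 on 2 arrays. By family, 26 of 40 collagens, 9 of 10 laminins and 15 of 26 integrins were tested.

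The cartilage collagens Col9a1 and Col10a1, the kidney basement-membrane chains Col4a3 and Col4a5, and the collagen receptors Itga1, Itga2 and Itga10 were among the members not tested, although relatives of each, such as Col9a2, Col4a4 and Itga11, were tested. So were Itgam and Itgax, receptor chains of myeloid blood cells, Itga2b, the chain of platelets, Itga4 and Itga7. Of the beta chains, Itgb6, Itgb8 and Itgb2l were not tested, nor was Lama2, the laminin chain of muscle. The other untested collagens were Col8a2, Col12a1, Col14a1, Col15a1, Col19a1, Col23a1, Col24a1, Col25a1, Col27a1 and Col28a1. All statements on changes below concern the 51 tested members, which had to be well above background in at least 1 group.

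The first comparison, GFP IP against input, asks which of these mRNAs came down with tagged DAZL. Most of the measured matrix genes were lower in the GFP IP than in the input. Of 51 tested members 34 were lower, 2 were higher and 15 did not pass (adjusted p under 0.05). Among all 14976 genes tested, 36.6% were lower, 18.5% were higher and 55.1% passed in either direction, against 66.7% of members lower and 3.92% higher. The members that were higher were Itgav and Itgb1, the chains of a receptor for fibronectin and vitronectin. Without Itgb4bp the counts were 33 lower and 2 higher.

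The members' median difference was -1.05, against -0.51 for all genes, so that members lay -0.54 from the median gene, and 41 of 51 lay below it. With no filter on dim probes, which tests all 77 members, the median lay -0.043 from that of all genes, itself at -1.06. The 4 Itga1 probes, above background on 0 arrays, were at -1.31 to -1.27 in this comparison. The brightest Itga4 probe, also above background on 0 arrays, was at 0.10. Differences of the size of the members' median were thus also seen without detected signal. On each array alone, the members' median minus that of all genes was -1.01 and -1.10 in the GFP IP, -0.53 and -0.57 in the PABP1 IP, and -0.26 and -0.09 in input. The GFP IP arrays were thus the lowest and the input arrays the highest, with no overlap between groups. With slide as a block 33 members were lower and 2 higher, and within slide 1 it was 29 and 3, with members -0.49 and -0.40 from the median gene.

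The number of calls rested on the scaling and on single arrays. It was 8 lower and 3 higher under median scaling, which takes the median of all probes for the 75th percentile, 26 and 3 after quantile normalization, and 1 and 3 with spike-in controls. These settings moved the median gene by 0.58, 0.26 and 1.01, and with spike-in controls the standard error of every named member was 0.54. Which of these changed the counts was not tested. The lower count was 19 without GFP IP replicate 1, 16 without input replicate 1 and 14 without input replicate 2. Whichever single array was left out, 11 of the 34 lower calls and 0 of the 2 higher calls held. The 11 were Col7a1, Col11a1, Col18a1, Col22a1, Lama5, Lamb2, Itgb3, Itgb4, Itgb5, Itgb7 and Itgb4bp. The 8 lower calls under median scaling were Col18a1, Col22a1, Lama5, Lamb2, Itga3, Itgb3, Itgb7 and Itgb4bp. All other lower calls in this comparison, also those named below without this limit, ended under median scaling.

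**Figure D1:**
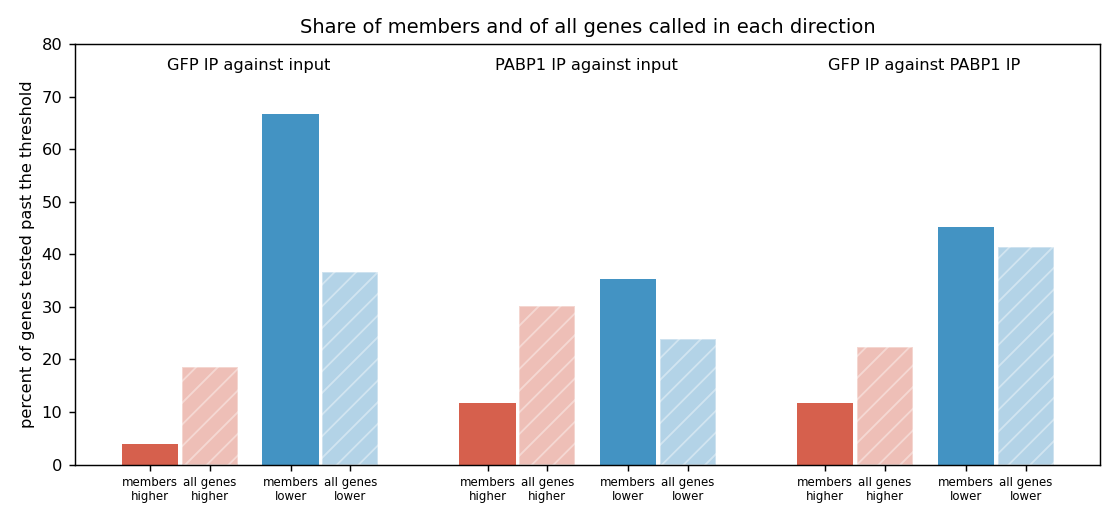
Share of members (solid bars, n = 51) and of all genes tested (hatched bars, n = 14976) that passed an adjusted p of 0.05 as higher or lower, in percent, for each comparison, with signals scaled to the 75th percentile. In the GFP IP against input 66.7% of members and 36.6% of all genes were lower, while in the GFP IP against the PABP1 IP the shares lower were 45.1% and 41.3%.

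Itgav, the integrin chain shared by receptors for vitronectin and fibronectin, had levels of 0.70 and 0.17 in the GFP IP, -1.79 and -0.86 in the PABP1 IP, and -1.22 and -0.99 in input. Both GFP IP arrays lay above all other arrays. Itgav was 2.91-fold higher in the GFP IP than in the input (log2 difference 1.54, standard error 0.37, from 2 arrays a group, adjusted p = 0.0185). Values after ± are such standard errors from limma. The difference was 1.17 with slide as a block (adjusted p = 0.00649) and 1.28 within slide 1, where the GFP IP had 1 array. The call ended without GFP IP replicate 1, input replicate 1 or input replicate 2, with adjusted p = 0.0799, 0.0936 and 0.0639. The other 3 Itgav probes were above background on 0 arrays, so 1 probe carried this result.

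Itgb1 encodes the beta chain with the most alpha partners. Its levels were 1.02 and 0.80 in the GFP IP, 0.38 and 0.97 in the PABP1 IP, and 0.12 and 0.17 in input. The GFP IP and input arrays did not overlap, while the PABP1 IP arrays overlapped those of the GFP IP. Itgb1 was 1.70-fold higher in the GFP IP than in the input (0.76 ± 0.24, adjusted p = 0.0449), and 0.56 with slide as a block and 0.65 within slide 1 (adjusted p = 0.04 and 0.0385). A dimmer Itgb1 probe gave -0.43, and the call ended without any 1 of the 2 GFP IP and 2 input arrays, with adjusted p of 0.0772 to 0.167.

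The beta chains other than Itgb1 went the other way. All 6 tested beta chains passed, 5 of them lower, against 36.6% of all genes lower. The median of the 6 lay -0.83 from the median gene. Itgb5, which pairs with Itgav to bind vitronectin, had levels of 4.87 and 4.64 in the GFP IP, 4.82 and 4.76 in the PABP1 IP, and 6.02 and 6.02 in input. Both IPs lay below input and overlapped each other. Itgb5 was 2.40-fold lower in the GFP IP than in the input (-1.26 ± 0.16, adjusted p = 0.00318; adjusted p = 0.104 under median scaling). Itgb3, the other vitronectin receptor partner of Itgav, had levels of -1.51 and -1.54 in the GFP IP, -1.71 and -1.48 in the PABP1 IP, and 0.21 and 0.11 in input. It was 3.22-fold lower in the GFP IP than in the input (-1.68 ± 0.16, adjusted p = 0.00205). The alpha chain of these receptors was thus higher in the GFP IP than in the input while these beta chains were lower.

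Itgb7 encodes a beta chain of lymphocyte homing receptors. Its levels were 2.38 and 2.42 in the GFP IP, 2.91 and 2.60 in the PABP1 IP, and 4.55 and 4.35 in input, with the inputs apart from both IPs. The difference from input was 4.14-fold lower in the GFP IP (-2.05 ± 0.18, adjusted p = 0.00184). Itgb4, the laminin receptor chain of hemidesmosomes, was 2.51-fold lower (-1.33 ± 0.15, adjusted p = 0.00242; 0.0612 under median scaling), with a dimmer probe at -0.79. Itgb2, the beta chain of leukocyte integrins, was 2.55-fold lower (-1.35 ± 0.34, adjusted p = 0.0231), and this call ended without GFP IP replicate 1 or either input array (adjusted p of 0.0741 to 0.11).

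Of 9 tested alpha chains, 5 were lower in the GFP IP than in the input, 1 was higher and 3 did not pass. Among all genes 36.6% were lower and 18.5% higher. Itga5, the chain of the classical fibronectin receptor, had levels of -0.27 and -0.22 in the GFP IP, 0.87 and 0.49 in the PABP1 IP, and 0.88 and 0.68 in input. The GFP IP stood below both other groups, and Itga5 was 2.04-fold lower than in input (-1.03 ± 0.20, adjusted p = 0.00956; 0.0708 without input replicate 1). Itga3, a laminin receptor chain, had levels of -1.32 and -0.69 in the GFP IP, 0.23 and -0.44 in the PABP1 IP, and 0.60 and 0.42 in input. It was 2.86-fold lower in the GFP IP than in the input (-1.52 ± 0.32, adjusted p = 0.0132), and the call ended without GFP IP replicate 1 or either input array (adjusted p of 0.0531 to 0.0749). A dimmer Itga3 probe gave -0.63.

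Itga6, the other tested laminin receptor chain and a surface marker of stem and germ cells, differed from Itga3 in its pattern. Its levels were 4.13 and 4.45 in the GFP IP, 2.87 and 3.13 in the PABP1 IP, and 3.81 and 3.84 in input. Here the GFP IP was the highest group and the PABP1 IP the lowest, without overlap. The difference between GFP IP and input was 0.46 ± 0.19 and did not pass (adjusted p = 0.0895). It passed within slide 1 (0.62, adjusted p = 0.0429), under median scaling (1.04, adjusted p = 0.0264), after quantile normalization (0.75, adjusted p = 0.0341), with spike-in controls (1.47, adjusted p = 0.0248) and with normexp background correction (1.02, adjusted p = 0.00377). A second Itga6 probe well above background on all 6 arrays gave -0.19. Itga9, Itgal and Itgae, which code for chains of other receptors including those of leukocytes, were lower in the GFP IP than in the input at -1.06, -1.05 and -0.64 (adjusted p = 0.012, 0.0157 and 0.0177). A dimmer Itgal probe gave 0.65. These 3 calls ended without 1 of the input arrays (adjusted p of 0.0662 to 0.11) and under median scaling, and that of Itgae also within slide 1 (adjusted p = 0.0514). Leaving out GFP IP replicate 2 ended the call of Itgal (adjusted p = 0.0589), and GFP IP replicate 1 that of Itgae (adjusted p = 0.0775).

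**Figure D2:**
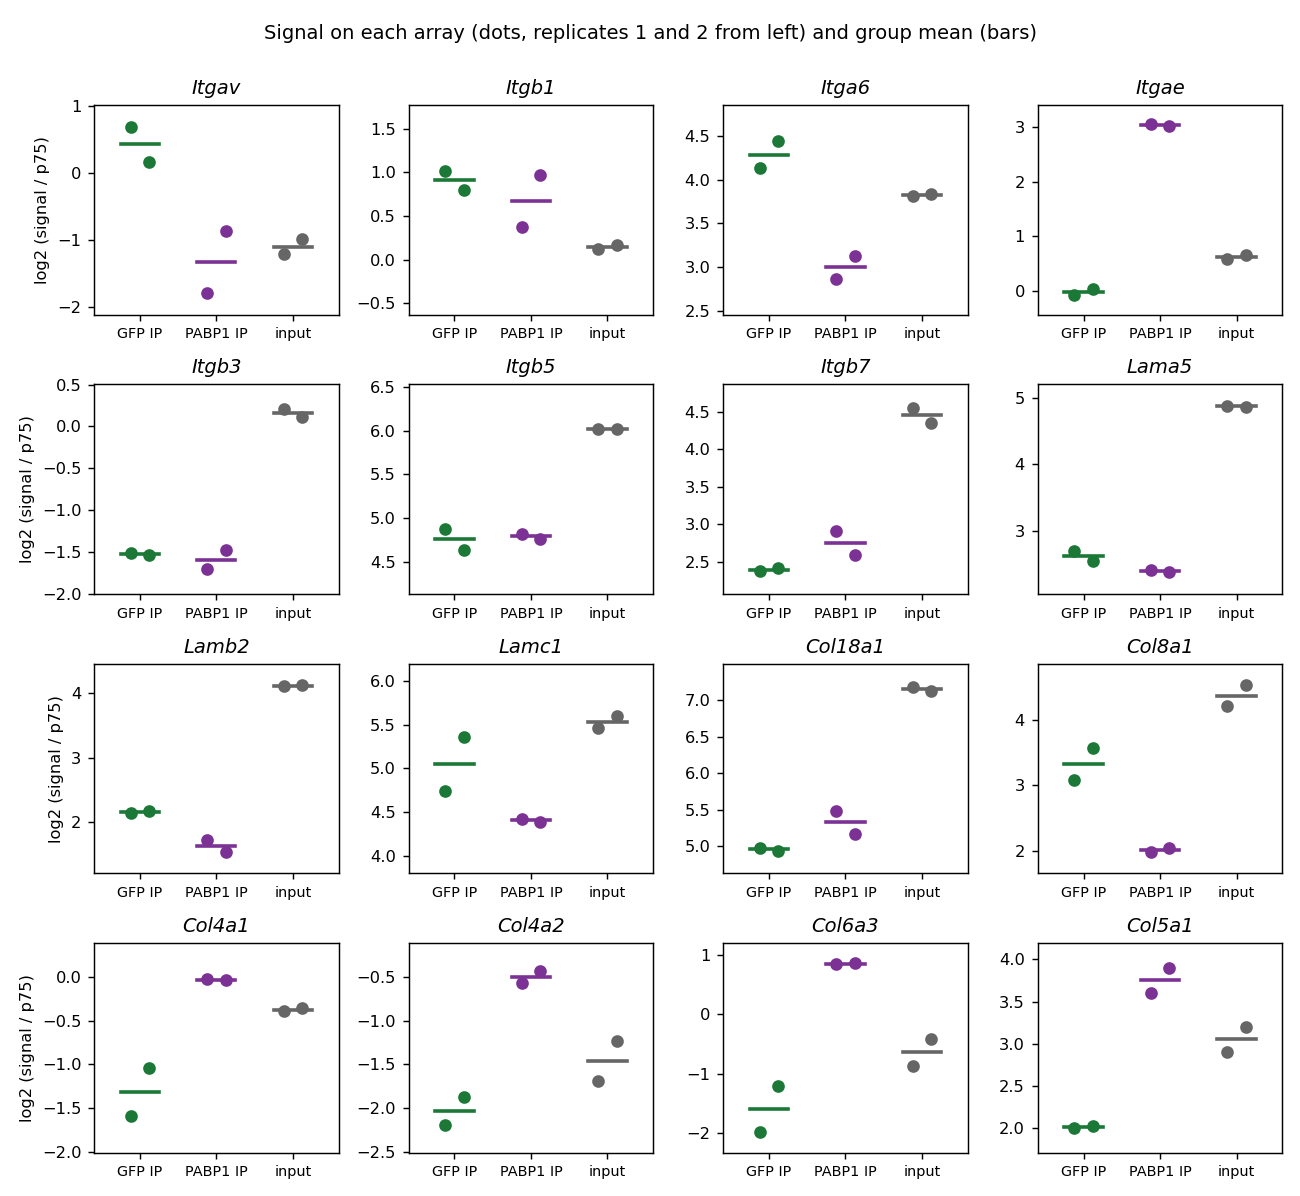
Log2 signal relative to the array's 75th percentile (vertical axis) of 16 members on each array, with 1 dot per array and a bar at the group mean (n = 2 arrays per group). Itgav and Itga6 had both GFP IP arrays highest, Itgb3, Itgb5, Itgb7, Lama5, Lamb2, Col18a1 and Col8a1 had both input arrays highest, and Itgae, Col4a2, Col6a3 and Col5a1 had both PABP1 IP arrays highest.

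Among the laminins, 6 of 9 tested chains were lower in the GFP IP than in the input, 0 were higher and 3 did not pass. The shares of all genes lower and higher were 36.6% and 18.5%. Lama5, the alpha chain most widespread in basement membranes, had levels of 2.70 and 2.55 in the GFP IP, 2.43 and 2.38 in the PABP1 IP, and 4.88 and 4.86 in input. Both IPs lay far below input. Lama5 was 4.73-fold lower in the GFP IP than in the input (-2.24 ± 0.15, adjusted p = 0.00143), and -2.27 with slide as a block and -2.32 within slide 1. Lamb2, a beta chain of kidney and neuromuscular basement membranes, had levels of 2.15 and 2.18 in the GFP IP, 1.72 and 1.54 in the PABP1 IP, and 4.10 and 4.12 in input. It was 3.85-fold lower in the GFP IP than in the input (-1.95 ± 0.15, adjusted p = 0.00158).

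The chains of the first laminin of the embryo moved less. Lama1, its alpha chain, had levels of -1.004 and -1.181 in the GFP IP, -1.81 and -1.34 in the PABP1 IP, and -0.35 and -0.32 in input. It was 1.69-fold lower in the GFP IP than in the input (-0.76 ± 0.21, adjusted p = 0.0311), with values of 0.0714 to 0.126 without any 1 of the GFP IP and input arrays, and turned to 0.25 with spike-in scaling. Lamc1, the gamma chain of most laminins, had levels of 4.74 and 5.36 in the GFP IP, 4.42 and 4.39 in the PABP1 IP, and 5.47 and 5.60 in input. Its difference between GFP IP and input was -0.48 ± 0.24 and did not pass (adjusted p = 0.141). Lamb1-1, the beta chain of this trimer, was at -0.71 ± 0.48 (adjusted p = 0.247), but passed with slide as a block (-1.16, adjusted p = 0.0287) and within slide 1 (-0.89, adjusted p = 0.0234).

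Lamb3, which joins Lama3 in the laminin of skin, was lower in the GFP IP than in the input at -1.54 ± 0.28 (adjusted p = 0.0081). Lama4, a chain of vessel walls, was also lower at -1.56 ± 0.40 (adjusted p = 0.0232; 0.084 within slide 1). The calls of Lamb3 and Lama4 ended without input replicate 2, with adjusted p = 0.0511 and 0.0844, and that of Lama4 also without GFP IP replicate 1 (0.0979). Lama3 (-0.65, adjusted p = 0.398) and Lamc3 (-0.35, adjusted p = 0.117) did not pass.

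Of 26 tested collagens 17 were lower in the GFP IP than in the input, 0 were higher and 9 did not pass. Among all genes 36.6% were lower and 18.5% higher. The median of these collagens lay -0.57 from the median gene. Col18a1 encodes a basement-membrane collagen whose end is released as endostatin. Its levels were 4.98 and 4.94 in the GFP IP, 5.49 and 5.17 in the PABP1 IP, and 7.18 and 7.12 in input. Both IPs lay below input, and Col18a1 was 4.56-fold lower in the GFP IP than in the input (-2.19 ± 0.18, adjusted p = 0.0016), with a second probe at -1.90. Col22a1, a collagen of tissue junctions, had levels of -0.40 and -0.49 in the GFP IP, -0.23 and -0.41 in the PABP1 IP, and 1.38 and 1.45 in input. It was 3.62-fold lower in the GFP IP than in the input (-1.85 ± 0.16, adjusted p = 0.00173), and a dimmer probe gave -0.87. Col7a1, the anchoring fibril collagen of skin, was 2.69-fold lower (-1.43 ± 0.17, adjusted p = 0.00277; 0.0753 under median scaling).

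Of 9 tested fibrillar collagens, the fibre-forming chains of connective tissue and cartilage, 6 were lower in the GFP IP than in the input and 0 higher. The shares of all genes were 36.6% and 18.5%. Col1a2, a chain of collagen I, had levels of 3.51 and 4.52 in the GFP IP, 5.57 and 5.29 in the PABP1 IP, and 5.17 and 5.77 in input. The GFP IP arrays were lowest and the other groups overlapped. Col1a2 was 2.74-fold lower in the GFP IP than in the input (-1.45 ± 0.40, adjusted p = 0.0284). Col1a1, its partner chain, had levels of 3.44 and 4.21 in the GFP IP, 4.98 and 4.84 in the PABP1 IP, and 4.55 and 5.01 in input, a difference between GFP IP and input of -0.95 ± 0.32 (adjusted p = 0.0498). With spike-in scaling it was 0.05, and dimmer Col1a1 probes gave -1.72 and -2.77.

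Col3a1, the collagen of soft tissues, had levels of 0.61 and 1.67 in the GFP IP, 3.01 and 2.93 in the PABP1 IP, and 2.10 and 2.65 in input. It was 2.36-fold lower in the GFP IP than in the input (-1.24 ± 0.39, adjusted p = 0.0445). GFP IP replicate 1 was lower than replicate 2 for Col1a1, Col1a2 and Col3a1. Without GFP IP replicate 1, or within slide 1, none of these 3 passed, with adjusted p = 0.169, 0.083 and 0.126 without that array and 0.143, 0.0664 and 0.111 within slide 1. Without input replicate 1 or input replicate 2 the calls also ended (adjusted p of 0.0593 to 0.205). Those of Col1a1 and Col3a1 ended even without either PABP1 IP array, which enters only through the spread (adjusted p = 0.0745 and 0.0698).

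Col5a1, which starts and thins collagen I fibrils, had levels of 1.998 and 2.016 in the GFP IP, 3.60 and 3.90 in the PABP1 IP, and 2.90 and 3.20 in input. The 3 groups did not overlap. Col5a1 was 2.07-fold lower in the GFP IP than in the input (-1.05 ± 0.19, adjusted p = 0.00854; 0.06 without input replicate 2 and 0.101 with normexp background correction), and a dimmer probe gave -2.93. Col11a1, of the same fibril-forming class in cartilage, was at -1.14 ± 0.19 (adjusted p = 0.00599; 0.0854 under median scaling). Col2a1, the main cartilage collagen, had levels of -3.72 and -1.29 in the GFP IP, -1.01 and -2.20 in the PABP1 IP, and 0.09 and -0.23 in input. Its IP arrays were far apart, and its difference of -2.44 ± 0.85 between GFP IP and input did not pass (adjusted p = 0.0578). It passed at -1.22 within slide 1 (adjusted p = 0.0168), at -1.20 with normexp (adjusted p = 0.00915) and at -1.53 with slide as a block (adjusted p = 0.019), and a dimmer probe gave 0.16.

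Col4a1 and Col4a2, neighbouring genes whose chains make the standard collagen IV of basement membranes, were both lowest in the GFP IP. Col4a1 had levels of -1.60 and -1.05 in the GFP IP, -0.03 and -0.03 in the PABP1 IP, and -0.40 and -0.35 in input. Col4a2 had levels of -2.19 and -1.87 in the GFP IP, -0.57 and -0.44 in the PABP1 IP, and -1.69 and -1.24 in input. For both genes the 3 groups did not overlap and the PABP1 IP was highest. Between GFP IP and input, Col4a1 passed (-0.95 ± 0.22, adjusted p = 0.0179) and Col4a2 did not (-0.57 ± 0.23, adjusted p = 0.0819). The call of Col4a1 ended without GFP IP replicate 1 or either input array (adjusted p of 0.0546 to 0.0868), and its value was 0.06 with spike-in scaling. Second probes gave -0.97 for Col4a1 and -0.66 for Col4a2.

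Fibroblasts and mesenchyme make most fibrillar collagen, and all 8 of their listed markers were on the array. Their summed linear signal relative to the 75th percentile was 11.0 and 15.4 in the GFP IP, 41.2 and 36.5 in the PABP1 IP, and 36.4 and 42.4 in input. Of 7 tested, 3 were lower in the GFP IP than in the input and 0 higher, against 36.6% of all genes lower, with a median that lay -0.69 from the median gene. Between PABP1 IP and input 1 was higher and 1 lower, against 30.1% and 23.8% of all genes. Their median lay 0.86 above the median gene, where the collagens lay -0.44 from it. This contrast depended on dim probes. For the 5 markers well above background on all 6 arrays the median lay -0.08 from the median gene, and for such collagens -0.31. In the GFP IP against the PABP1 IP 5 were lower and 0 higher, against 41.3% of all genes lower. These values set RNA recovered by an antibody against other RNA pools, and measure neither the number of cells of a type nor their RNA per cell. Pdgfra was above background on 0 arrays. Their part in the result was not tested.

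**Figure D3:**
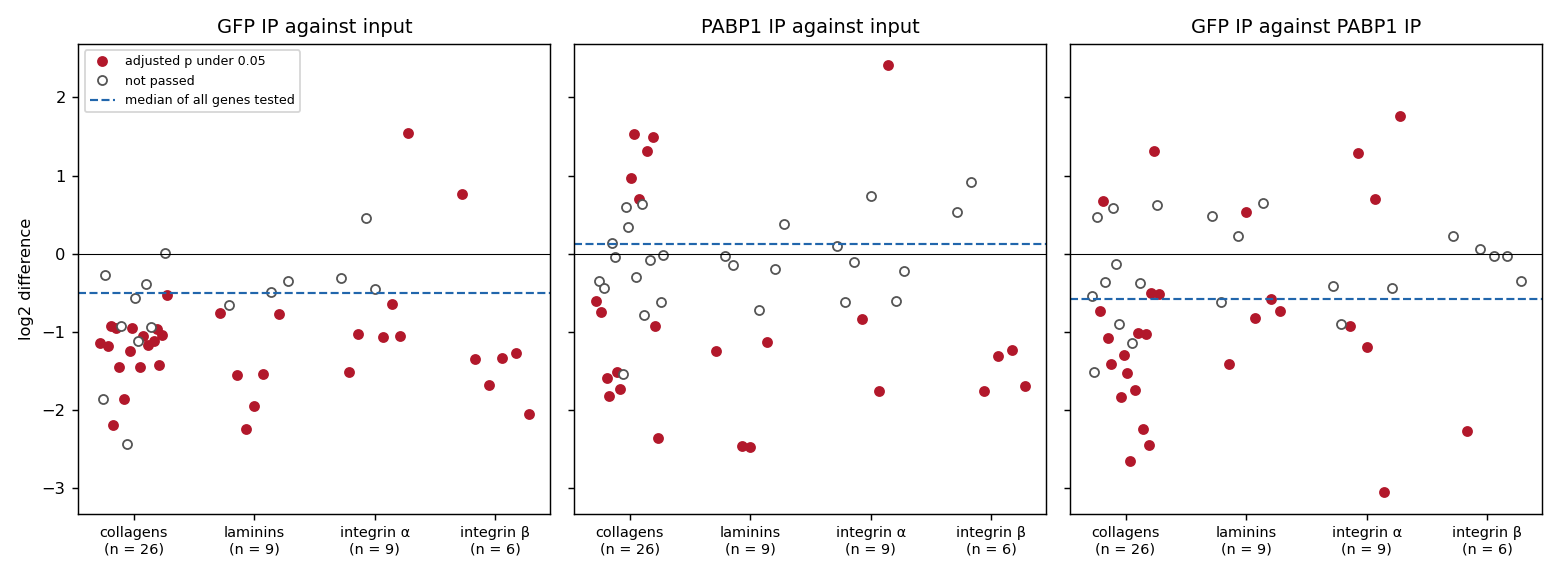
Log2 difference (vertical axis) of each tested member in each comparison, by family, with filled points for members past an adjusted p of 0.05, open points for the others and a dashed line at the median of all genes tested. Itgb4bp is left out. In the GFP IP against input 2 integrins lie above 0 among filled points, and in the PABP1 IP against input 5 collagens and 1 integrin do, with signals scaled to the 75th percentile.

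The comparison of PABP1 IP and input, the study's controls, shows how these mRNAs behave with a general mRNA-binding protein. Several laminins and beta integrins were lower. Some collagens and Itgae were higher, but the share of members higher was below that of all genes. Of 51 tested members 18 were lower, 6 were higher and 27 did not pass. Of all genes tested 23.8% were lower, 30.1% were higher and 53.9% passed in either direction, against 35.3% of members lower and 11.8% higher. Leaving Itgb4bp out did not alter the 18 and 6. The members' median difference was -0.35, against 0.12 for all genes, so that they lay -0.47 from the median gene, and 37 of 51 lay below it. With no filter on dim probes this turned, and the 77 members lay 0.15 above the median of all genes, itself at -0.49.

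With slide as a block 20 members were lower and 8 higher, and within slide 1 it was 20 and 6. Of the 6 higher calls only that of Itgae held whichever single array was left out, and the higher count was 3 without PABP1 IP replicate 2, 1 without input replicate 1 and 3 without input replicate 2. Of the 18 lower calls 12 held. With spike-in scaling, which moved the median gene by 2.28, 37 members were higher and 0 were lower, so the directions below are those under the 75th percentile.

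Itgae, the alpha chain of the receptor that binds lymphocytes to epithelium, had levels of -0.08 and 0.04 in the GFP IP, 3.05 and 3.02 in the PABP1 IP, and 0.58 and 0.66 in input. The PABP1 IP stood far above both other groups. Itgae was 5.31-fold higher in the PABP1 IP than in input (2.41 ± 0.15, adjusted p = 0.000849), and 2.45 with slide as a block and 2.42 within slide 1. A second Itgae probe was above background on 0 arrays. Its partner chain Itgb7 went the other way in the same arrays, 3.24-fold lower in the PABP1 IP than in input (-1.70 ± 0.18, adjusted p = 0.00169).

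Of 26 tested collagens 5 were higher in the PABP1 IP than in input, against 30.1% of all genes. These were Col4a2, Col4a4, Col5a1, Col6a1 and Col6a3. Col6a3, the largest chain of the beaded filaments of collagen VI, had levels of -1.98 and -1.21 in the GFP IP, 0.85 and 0.86 in the PABP1 IP, and -0.86 and -0.41 in input. The groups did not overlap, and Col6a3 was 2.81-fold higher in the PABP1 IP than in input (1.49 ± 0.31, adjusted p = 0.0119; 0.0687 without input replicate 1). Col6a1, a shorter chain of the same filament, had levels of -3.68 and -2.76 in the GFP IP, -1.11 and -0.84 in the PABP1 IP, and -2.49 and -2.08 in input. It was at 1.31 ± 0.35 (adjusted p = 0.027), and the call ended with normexp background correction (0.038, adjusted p = 0.865). Its neighbouring gene Col6a2, the third chain, did not pass (-0.08 ± 0.26, adjusted p = 0.821).

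Col4a2 was 1.95-fold higher in the PABP1 IP than in input (0.96 ± 0.23, adjusted p = 0.0173; 0.0695 without PABP1 IP replicate 2 and 0.0985 without input replicate 1), and the call ended with normexp background correction (0.17, adjusted p = 0.396). Its second probe gave 0.05. Col4a4, a kidney collagen IV chain, had levels of 0.59 and 1.42 in the GFP IP, 4.24 and 3.07 in the PABP1 IP, and 2.28 and 1.96 in input. It was 2.90-fold higher in the PABP1 IP than in input (1.53 ± 0.47, adjusted p = 0.0412; 0.129 without PABP1 IP replicate 1, 0.102 and 0.16 without input replicates 1 and 2, and 0.0609 after quantile normalization). A second Col4a4 probe, and the probes of its partner chains Col4a3 and Col4a5, were above background on 0 arrays. Col5a1 was at 0.70 ± 0.19 (adjusted p = 0.0293; 0.0952 within slide 1, 0.0541 and 0.107 with median and quantile scaling), but its other probe gave -2.92 and the mean of its probes -1.11. Without PABP1 IP replicate 2, input replicate 1 or input replicate 2 its adjusted p was 0.109, 0.167 and 0.068, and that of Col6a1 was 0.105, 0.128 and 0.0645, with 0.0651 without PABP1 IP replicate 1.

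Laminins were lower in the PABP1 IP than in input in 4 of 9 tests, with 0 higher and a median that lay -0.84 from the median gene. Among all genes 23.8% were lower and 30.1% higher. Lamb2 was 5.56-fold lower (-2.47 ± 0.15, adjusted p = 0.000849) and Lama5 5.52-fold lower (-2.46 ± 0.15, adjusted p = 0.000849). Lama1 was 2.36-fold lower (-1.24 ± 0.21, adjusted p = 0.00622) and Lamc1 2.19-fold lower (-1.13 ± 0.24, adjusted p = 0.0129), but with spike-in scaling they were at 1.04 and 1.15. The call of Lamc1 ended without PABP1 IP replicate 2, input replicate 1 or input replicate 2 (adjusted p = 0.0513, 0.0568 and 0.0762). Lamb1-1 had levels of -1.09 and -1.44 in the GFP IP, -2.39 and -0.95 in the PABP1 IP, and -0.64 and -0.46 in input. Its PABP1 IP arrays lay far apart, and it was at -1.12 ± 0.48 without passing (adjusted p = 0.103), but passed within slide 1 (-1.84, adjusted p = 0.0056).

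Among the collagens 8 of 26 were lower in the PABP1 IP than in input, against 23.8% of all genes. Col8a1, a network collagen of vessels and the eye, had levels of 3.08 and 3.57 in the GFP IP, 1.98 and 2.04 in the PABP1 IP, and 4.20 and 4.52 in input. The groups did not overlap, and Col8a1 was 5.10-fold lower in the PABP1 IP than in input (-2.35 ± 0.23, adjusted p = 0.00136) and 2.06-fold lower in the GFP IP (-1.04 ± 0.23, adjusted p = 0.0149; 0.057 without GFP IP replicate 1, 0.0861 without input replicate 2 and 0.143 with normexp). A dimmer Col8a1 probe gave 0.28 and 0.50 for these differences. Col18a1 was 3.54-fold lower in the PABP1 IP than in input (-1.82 ± 0.18, adjusted p = 0.00131; 0.45 with spike-in scaling, a sign turned). The main chains of connective tissue did not pass, with Col1a1 at 0.13 ± 0.32 (adjusted p = 0.751; dimmer probes at -0.81 and -2.09), Col1a2 at -0.04 ± 0.40 (adjusted p = 0.946) and Col3a1 at 0.59 ± 0.39 (adjusted p = 0.255).

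Of the integrins, 6 of 15 were lower in the PABP1 IP than in input and 1 was higher, against 23.8% and 30.1% of all genes. Itga9, a receptor chain for tenascin and other ligands, had levels of -2.82 and -2.30 in the GFP IP, -3.34 and -3.19 in the PABP1 IP, and -1.53 and -1.48 in input. It was 3.39-fold lower in the PABP1 IP than in input (-1.76 ± 0.22, adjusted p = 0.00234), although well above background on only 1 of these PABP1 IP arrays. Itgb3 was 3.37-fold lower (-1.75 ± 0.16, adjusted p = 0.00125), and Itgb5 2.35-fold lower (-1.23 ± 0.16, adjusted p = 0.00274). Spike-in scaling turned the sign of these 3, to 0.52, 0.53 and 1.05. Itga6 was 1.78-fold lower (-0.83 ± 0.19, adjusted p = 0.0161; 1.45 with spike-in scaling), and its call ended without PABP1 IP replicate 1 or either input array (adjusted p of 0.0649 to 0.0901) and with normexp (adjusted p = 0.17). Itgav (-0.22, adjusted p = 0.639), Itgb1 (0.53, adjusted p = 0.121), Itga3 (-0.61, adjusted p = 0.165) and Itga5 (-0.10, adjusted p = 0.691) did not pass, but Itgav was lower with slide as a block (-0.59, adjusted p = 0.0481) and within slide 1 (-0.69, adjusted p = 0.0458).

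The GFP IP was set against the PABP1 IP to ask which of these mRNAs differed between the bound pools. In the GFP IP 14 of 26 tested collagens were lower, against 41.3% of all genes, and 10 did not pass. Itgav, Itga6 and Col8a1 were higher. Of 51 tested members 23 were lower, 6 were higher and 22 did not pass, and without Itgb4bp the counts were 22 and 6. Of all genes tested 41.3% were lower, 22.3% were higher and 63.6% passed in either direction, against 45.1% of members lower and 11.8% higher. The members' median difference equalled that of all genes at -0.58, with 25 members below and 26 above it. The share of members lower was near that of all genes in this comparison.

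With slide as a block 28 members were lower and 8 higher, and within slide 1 it was 16 and 6. The lower count was 11 without GFP IP replicate 1, and 15 without PABP1 IP replicate 1 and 15 without PABP1 IP replicate 2, while the higher count was 3 without GFP IP replicate 2. Leaving out any single array kept 11 of the 23 lower calls and 3 of the 6 higher calls, those of Itgav, Itga6 and Col8a1. The scaling moved the split to 12 lower and 9 higher under median scaling, 14 and 9 after quantile normalization, and 38 and 0 with spike-in controls. These settings shifted the median gene by 0.39, 0.31 and -1.27, and their part in the split was not tested further.

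The families differed in where they lay. Collagens lay -0.38 from the median gene, with 14 of 26 lower and 2 higher in the GFP IP than in the PABP1 IP. Laminins lay at 0.00 from it with 4 of 9 lower and 1 higher, and integrins at 0.23 with 4 of 15 lower and 3 higher. Among all genes 41.3% were lower and 22.3% higher. The laminin position depended on dim probes. Among members well above background on all 6 arrays, 6 laminins lay 0.94 above the median gene, 22 collagens at -0.38 and 13 integrins at 0.23. These positions are descriptions, and no test of a difference between families was made.

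Itgae was 8.30-fold lower in the GFP IP than in the PABP1 IP (-3.05 ± 0.15, adjusted p = 0.000459), with -3.01 between the arrays of slide 1 and -3.10 between those of slide 2. Col4a4 was 6.28-fold lower (-2.65 ± 0.47, adjusted p = 0.00555) and Col6a3 5.46-fold lower (-2.45 ± 0.31, adjusted p = 0.00173). Itgb2 had levels of -3.00 and -2.54 in the GFP IP, -0.95 and -0.06 in the PABP1 IP, and -1.31 and -1.52 in input. Its groups did not overlap between the IPs, and it was 4.79-fold lower in the GFP IP than in the PABP1 IP (-2.26 ± 0.34, adjusted p = 0.00319). Col6a1 was 4.73-fold lower (-2.24 ± 0.35, adjusted p = 0.00356), and Col3a1 3.56-fold lower (-1.83 ± 0.39, adjusted p = 0.0105). For Itgb2, Col6a1 and Col3a1 the difference was wider on slide 2 (-2.93, -2.84 and -2.32) than on slide 1 (-1.59, -1.65 and -1.35), with the same sign on both.

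Other collagens lower in the GFP IP than in the PABP1 IP included all 4 tested chains of collagens VI and VII, of which Col6a2 and Col7a1, at -1.03 and -0.51 (adjusted p = 0.0195 and 0.046), lost the call without GFP IP replicate 1 (0.0768 and 0.0622) or PABP1 IP replicate 1 (0.0865 and 0.0713), and Col7a1 whichever array was left out. Col5a1 was 3.35-fold lower (-1.75 ± 0.19, adjusted p = 0.00113), but its other probe gave -0.01. Col4a1 and Col4a2 were at -1.29 ± 0.22 and -1.53 ± 0.23 (adjusted p = 0.00487 and 0.00285), with second probes at -0.98 and -0.71. Col1a1 and Col1a2 were at -1.08 ± 0.32 and -1.42 ± 0.40 (adjusted p = 0.0295 and 0.0261), and neither passed within slide 1 (adjusted p = 0.0958 and 0.0666), after quantile normalization (0.271 and 0.194) or without any 1 of GFP IP replicate 1, PABP1 IP replicate 1 and PABP1 IP replicate 2 (0.0605 to 0.109). Of the integrins with a matrix ligand, Itga5 was 1.90-fold lower in the GFP IP (-0.92 ± 0.20, adjusted p = 0.0101; 0.0941 under median scaling).

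Itgav was 3.39-fold higher in the GFP IP than in the PABP1 IP (1.76 ± 0.37, adjusted p = 0.00927), with 1.97 on slide 1 and 1.56 on slide 2. Col8a1 was 2.48-fold higher (1.31 ± 0.23, adjusted p = 0.00517), with 1.59 on slide 1 and 1.04 on slide 2, and a dimmer probe at 0.22. Itga6 was 2.45-fold higher (1.29 ± 0.19, adjusted p = 0.00284), with 1.58 and 1.01 on the slides, and its second probe gave 1.65. All 3 had both GFP IP arrays above both PABP1 IP arrays. With spike-in scaling none of these 3 calls held, at 0.49 for Itgav, 0.040 for Col8a1 and 0.020 for Itga6 (adjusted p = 0.406, 0.948 and 0.974).

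The other 3 higher calls were smaller and turned negative with spike-in scaling. Itga9 was at 0.70 ± 0.22 (adjusted p = 0.0366) and -0.57 with spike-in scaling, and Lamb2 at 0.53 ± 0.15 (adjusted p = 0.0299) and -0.74. Col17a1, an epithelial anchoring collagen, was not well above background on either PABP1 IP array, and was at least 1.36-fold higher in the GFP IP (adjusted p = 0.0169), with a value of -0.60 with spike-in scaling. Normexp correction also gave -0.03 for Itga9 and -0.15 for Col17a1. The calls of Itga9, Lamb2 and Col17a1 ended without GFP IP replicate 2 (adjusted p = 0.125, 0.0948 and 0.0685) and without PABP1 IP replicate 2 (0.0723, 0.0986 and 0.0616). Lamb2 and Itga9 also lost it without GFP IP replicate 1 (0.0871, for Lamb2), PABP1 IP replicate 1 (0.131, for Itga9) or either input array (0.0783 and 0.0757), and Lamb2 and Col17a1 within slide 1 (0.11 and 0.0606).

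Of 6 tested beta chains only Itgb2 passed between the IPs. Itgb3 was at 0.07 ± 0.16 (adjusted p = 0.732), Itgb5 at -0.03 ± 0.16 (adjusted p = 0.859), Itgb4 at -0.03 ± 0.15 (adjusted p = 0.885), Itgb7 at -0.36 ± 0.18 (adjusted p = 0.143) and Itgb1 at 0.23 ± 0.24 (adjusted p = 0.428). The arrays of both IPs overlapped for Itgb1, Itgb3, Itgb4 and Itgb5, and did not for Itgb7. Dimmer probes gave 1.09 for Itgb1, and -1.77 and 0.03 for Itgb4, in the GFP IP against the PABP1 IP. Of the laminins, Lama5 was at 0.22 ± 0.15 (adjusted p = 0.241), Lama1 at 0.48 ± 0.21 (adjusted p = 0.0967) and Lamc1 at 0.65 ± 0.24 (adjusted p = 0.0635). With slide as a block Lama1 and Lamc1 passed as higher in the GFP IP (adjusted p = 0.0292 and 0.0285), and Itga3, at -0.90 ± 0.32 (adjusted p = 0.055), passed as lower (adjusted p = 0.00321). Lamc1 passed as well under median scaling, after quantile normalization, with normexp and within slide 1 (adjusted p of 0.0123 to 0.0219), and Itga3 with normexp and within slide 1 (adjusted p = 0.0384 and 0.026).

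**Figure D4:**
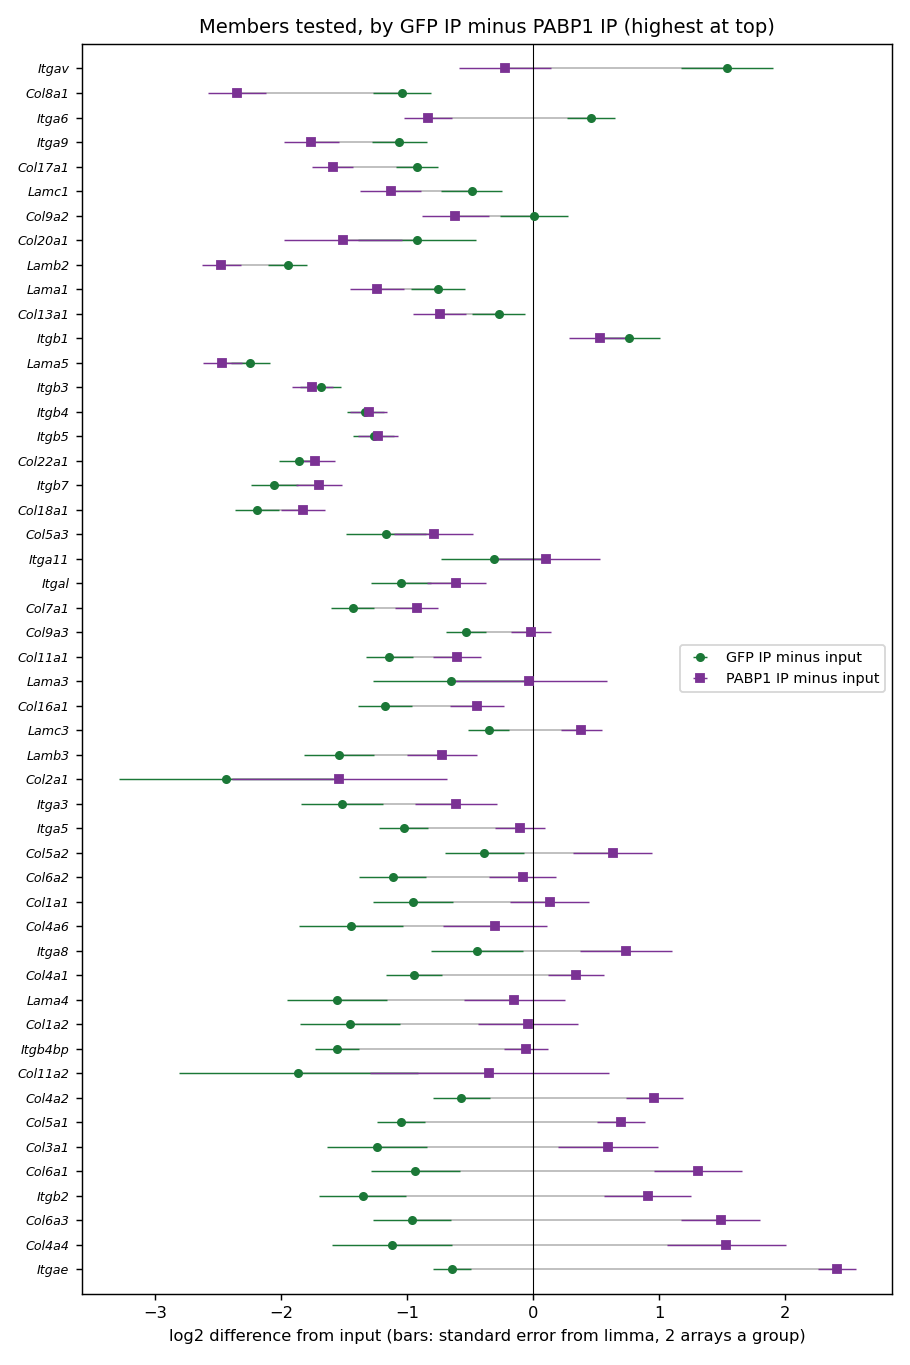
Log2 difference from input (horizontal axis) of 50 of the 51 tested members in the GFP IP (green circles) and the PABP1 IP (purple squares), ordered by GFP IP minus PABP1 IP, with bars of 1 standard error from limma (n = 2 arrays per group). Both differences share the input arrays. Itgav stands at the top with 1.54 and -0.22, and Itgae at the bottom with -0.64 and 2.41, under the scaling to the 75th percentile.

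Chains that join in a receptor or a trimer did not always move alike, and their differences from input share the input arrays. For the vitronectin receptors, Itgav was at 1.54 in the GFP IP and -0.22 in the PABP1 IP, while Itgb3 was at -1.68 and -1.75 and Itgb5 at -1.26 and -1.23. For the laminin receptors, Itga6 was at 0.46 and -0.83, Itgb1 at 0.76 and 0.53, and Itgb4 at -1.33 and -1.30. Dimmer probes gave -1.51 for Itgb1 and 0.98 for Itgb4 in the PABP1 IP against input, while another Itgb4 probe gave -1.18. For the leukocyte receptor of Itgal and Itgb2, the values were -1.05 and -0.61 for the alpha chain and -1.35 and 0.91 for the beta chain. A second Itgal probe, well above background on all 6 arrays, gave 0.65 and -0.07. Among the laminin chains, Lama5 was at -2.24 and -2.46, Lamb2 at -1.95 and -2.47, and Lamc1 at -0.48 and -1.13. In collagen VI, Col6a1 was at -0.93 and 1.31, Col6a2 at -1.11 and -0.08, and Col6a3 at -0.96 and 1.49.

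Other genes of the matrix and of adhesion were read from lists of known function. Of 16 tested matrix glycoproteins other than collagens and laminins, 2 were higher, 5 were lower and 9 did not pass in the GFP IP against input, with a median 0.07 above the median gene, against 18.5% of all genes higher and 36.6% lower. Thbs1, a matrix protein that controls adhesion and growth factors, was higher in the GFP IP (1.37 ± 0.27, adjusted p = 0.0108; 0.0694 without input replicate 1), although the mean of its probes gave -0.35. Fbln2, a basement-membrane glycoprotein, was lower in the GFP IP (-2.72 ± 0.25, adjusted p = 0.0019). In the PABP1 IP against input 4 were higher and 3 lower, against 30.1% and 23.8% of all genes. Fbn1, the microfibril protein, was at 2.45 ± 0.21 there (adjusted p = 0.00107, and 0.14 with normexp) and Fn1, fibronectin, at -1.10 ± 0.23 (adjusted p = 0.012). The value of Fn1 was 1.18 with spike-in scaling, and its call ended without PABP1 IP replicate 2 or either input array (adjusted p of 0.0538 to 0.0717). In the GFP IP against the PABP1 IP 2 were higher and 6 lower, against 22.3% and 41.3% of all genes. Among them were Nid1, the linker of laminin and collagen IV, at 1.50 ± 0.25 (adjusted p = 0.00455), and Postn, of fibroblasts, at -2.35 ± 0.38 (adjusted p = 0.00393).

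Of 19 tested genes for collagen processing and secretion, 2 were higher and 8 lower in the GFP IP than in the input, 2 higher and 2 lower in the PABP1 IP than in input, and 4 higher and 9 lower in the GFP IP than in the PABP1 IP. The shares called were 52.6%, 21.1% and 68.4%, against 55.1%, 53.9% and 63.6% of all genes, and against input the median in the GFP IP lay 0.42 above the median gene. Sec23a, a coat protein of the vesicles that carry procollagen, had levels of 1.88 and 2.09 in the GFP IP, -1.25 and -0.96 in the PABP1 IP, and -1.18 and -1.32 in input. Only the GFP IP arrays of Sec23a lay above 0, at 3.24 ± 0.19 over input (adjusted p = 0.00143). Lox, which crosslinks collagen, was also higher in the GFP IP than in the input (1.89 ± 0.45, adjusted p = 0.0192), with adjusted p of 0.0516 to 0.0989 without GFP IP replicate 2 or either input array. Ppib, an isomerase that helps collagen fold, was lower (-2.09 ± 0.41, adjusted p = 0.0103; 0.057 without input replicate 1). In the PABP1 IP Crtap, a collagen hydroxylation cofactor, was higher than in input (1.33 ± 0.18, adjusted p = 0.00312) and Serpinh1, the collagen chaperone, lower (-0.72 ± 0.22, adjusted p = 0.0377). The value of Serpinh1 was 1.56 with spike-in scaling, and leaving out any 1 of the PABP1 IP and input arrays ended its call (adjusted p of 0.0835 to 0.154).

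Of 19 tested integrin adaptors and signalling genes, 2 were higher and 7 lower in the GFP IP than in the input, 5 higher and 4 lower in the PABP1 IP than in input, and 2 higher and 7 lower in the GFP IP than in the PABP1 IP. The share called was 47.4% in each comparison, below that of all genes in all 3, and these counts mark nothing particular to the list. Tln1, talin, which binds integrin beta tails, was lower in the GFP IP than in the input (-1.45 ± 0.19, adjusted p = 0.00327), and Actn1, an actin crosslinker, was higher (0.92 ± 0.23, adjusted p = 0.0212). Spike-in scaling ended the call of Tln1 (adjusted p = 0.613), and leaving out GFP IP replicate 2 or either input array that of Actn1 (adjusted p of 0.0645 to 0.113). Itgb1bp1, which binds the tail of integrin beta 1, was at 2.17 ± 0.17 in the PABP1 IP against input and at -2.61 ± 0.17 in the GFP IP against the PABP1 IP (adjusted p = 0.000968 and 0.000462). Itgb3bp showed the same order, at 1.91 ± 0.15 and -2.97 ± 0.15 (adjusted p = 0.000987 and 0.000459).

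Matrix receptors that are not integrins went in both directions in the GFP IP. Of 10 tested, 4 were higher, 4 lower and 2 did not pass against input, where 18.5% of all genes were higher and 36.6% lower. Against the PABP1 IP 5 were higher and 4 lower, where 22.3% of all genes were higher and 41.3% lower. In the PABP1 IP against input 0 were higher and 3 lower, where 30.1% of all genes were higher and 23.8% lower. Ddr1, a collagen receptor kinase, had levels of 4.87 and 5.11 in the GFP IP, 3.12 and 2.86 in the PABP1 IP, and 3.53 and 3.87 in input. The GFP IP arrays of Ddr1 stood apart, at 1.29 ± 0.21 over input (adjusted p = 0.00567) and 1.997 ± 0.21 over the PABP1 IP (adjusted p = 0.000945). Sdc4, a heparan sulphate receptor at focal adhesions, was higher in the GFP IP than in the input (1.59 ± 0.16, adjusted p = 0.00212), and Sdc2, of the same family, lower (-2.10 ± 0.30, adjusted p = 0.00415; 0.117 with spike-in scaling). Dag1, the dystroglycan receptor of laminin, was at 1.88 ± 0.19 in the GFP IP against the PABP1 IP (adjusted p = 0.00088), and spike-in scaling ended this call (adjusted p = 0.297) and that of Ddr1 against the PABP1 IP (adjusted p = 0.213).

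The signals of markers of other cells that such cultures can hold were summed as well. The summed signal of 8 parietal endoderm markers, cells rich in laminin and collagen IV, was 54.3 and 69.8 in the GFP IP, 135 and 100 in the PABP1 IP, and 131 and 139 in input, with Sox7 above background on 0 arrays. Only 2 of these 8 were well above background on both input arrays. Of 7 tested, 2 were lower and 0 higher in the GFP IP than in the input, against 36.6% and 18.5% of all genes. Their median there lay -0.04 from the median gene. For 5 cardiac muscle markers it was 15.3 and 13.7 in the GFP IP, 89.5 and 82.9 in the PABP1 IP, and 38.8 and 36.2 in input, with Myh6 above background on 0 arrays. For 4 endothelial markers it was 8.03 and 8.69 in the GFP IP, 1.04 and 0.986 in the PABP1 IP, and 1.69 and 2.03 in input, with Cdh5 and Kdr above background on 0 arrays. For 3 blood markers, whose cells use Itgb2, Itgb7, Itgal and Itgae, it was 0.116 and 0.19 in the GFP IP, 0.422 and 0.244 in the PABP1 IP, and 0.259 and 0.167 in input, that is, well below the 75th percentile on all arrays. Of the cardiac, endothelial and blood markers 3, 1 and 0 were well above background on both input arrays, so few genes can set a sum. The part of these cells in the members' values was not tested.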

How the data were processed

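The authors deposited scanner output of 1-colour arrays with an intensity for each spot. Per the file headers, the processed signal is an intensity from which Agilent Feature Extraction 9.1.3.1 subtracted background. The deposited files also hold flags, an other kind of value, for spots well above background and for outliers. A deposited table of group means was not used.

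Control and outlier spots were left out, log2 signals of a probe were averaged, and the 75th percentile of each array was subtracted. Probes were kept if both arrays of any group had them well above background (21060). Each gene was read by its brightest probe and tested only if that probe was kept, giving 14976 genes. Itga7 thus was not tested, although a dimmer Itga7 probe was kept. Gene names are those of the array, and 69 of 77 members were matched by accession in a RefSeq table of assembly GRCm38.p6. Where a group was never well above background, its level was set to the lowest signal that was well above background, or its own where higher, and the fold is a lower bound.

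One limma model (version 3.58.1, R 4.3.3) of the 6 arrays by group, with 3 residual degrees of freedom, gave the 3 comparisons. P-values are two-sided, with Benjamini-Hochberg adjustment over all genes tested and a threshold of 0.05, and ± gives limma's standard error. The analysis was tested on simulated data.

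The members and all lists were chosen with earlier results of these data known. Values by array are given for a fixed set of members and for the 6 largest differences past the threshold per comparison and direction, without overlap of the groups and with the higher group well above background. Itgb2, Itgb4, Itgal, Col2a1, Col6a2, Col7a1, Col11a1, Lama3, Lama4, Lamb3 and Lamc3 were added after their values were seen. The values of 1 tested member are not reported here. Other pathway genes are those with the 2 largest differences past the threshold per list and direction. Alternatives covered scaling, background correction, filters, probes, slide, replicate block and leaving out each array. The labels do not say that replicate numbers pair samples.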

Additional observations from a re-analysis of the deposited data

How the results depend on the processing

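Of the values for named members under the alternatives, 947 kept their side of the threshold, 146 no longer passed and 46 passed only there. Another 24 turned in sign with a pass in either fit. Turns in sign where neither fit passed were counted among the 947. For example, Col1a2 in the PABP1 IP against input went from -0.04 to 0.28 with slide as a block. Spike-in scaling gave 19 of those 24. Between GFP IP and input these were Col1a1 (0.054), Col4a1 (0.058) and Lama1 (0.25). In the PABP1 IP against input they were Col18a1 (0.45), Itga9 (0.52), Itgb3 (0.53), Col1a2 (2.24), Lama1 (1.04), Lamc1 (1.15), Itga3 (1.67), Itga5 (2.17), Itga6 (1.45), Itgav (2.05), Itgb5 (1.05) and Lamb1-1 (1.16). Between the IPs they were Itga9 (-0.57), Col17a1 (-0.60), Lamb2 (-0.74) and Itgb3 (-1.21). The mean of a gene's probes turned Col5a1 (-1.11) and Col1a1 (-0.92) in the PABP1 IP against input. Between the IPs, quantile normalization turned Itgb5 (0.61) and normexp turned Itga9 (-0.028) and Col17a1 (-0.15). The cause was not tested.

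For GFP IP and input the members lower were 8 with median scaling and 1 with spike-in scaling, and the members higher were 1 with no filter on dim probes, 1 with the mean of probes and 1 with the replicate block. All genes called, 8250 in the report, were 5360 with median scaling, 4327 with spike-in scaling and 14793 with no filter. The members' median relative to all genes was -0.68 after quantile normalization, -0.31 with normexp, -0.043 with no filter, where all 77 members were tested, and -0.40 within slide 1. In the PABP1 IP against input spike-in scaling gave 37 members higher, 0 lower and 12977 genes called, against 8074 in the report, and no filter gave 2 members higher. The relative median was -0.25 with normexp, 0.15 with no filter and -0.56 within slide 1. For GFP IP and PABP1 IP the members lower were 12 with median scaling, 14 after quantile normalization, 38 with spike-in scaling and 13 with no filter. The members higher were 0 with spike-in scaling and 3 with no filter, and the relative median was -0.13 after quantile normalization, -0.25 with no filter and 0.11 within slide 1.

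Leaving out each array in turn gave, in the GFP IP against input, 0 to 2 members higher, 14 to 34 lower, 4135 to 8358 genes called and a relative median of -0.80 to -0.40. In the PABP1 IP against input it gave 1 to 6 higher, 12 to 18 lower, 5047 to 7981 genes called and -0.56 to -0.44. Between the IPs it gave 3 to 6 higher, 11 to 24 lower, 7899 to 9046 genes called and -0.20 to 0.083. A group left with 1 array, as each IP also was within slide 1, was assumed to vary like the others.

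The replicate numbers name samples only. In a check of the pairing, deviations of same-numbered arrays correlated at -0.65 for GFP IP and PABP1 IP, -0.06 for GFP IP and input, and 0.20 for PABP1 IP and input. Same-numbered arrays of the IPs lay on different slides, so the first value cannot separate pairing from slide. With the replicate block 30 members were lower and 1 higher in the GFP IP against input, 15 and 6 in the PABP1 IP against input, and 21 and 5 in the GFP IP against the PABP1 IP. The crossed numbers as a block, chosen after seeing the data, gave 29 lower and 8 higher between the IPs, and 11604 genes called against 9526. For the IP arrays the crossed numbers are the slides, so this was the slide block with the inputs left out.

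Low signal limits what could be seen, since for 26 of 77 members no group had the brightest probe well above background on both arrays.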
